A study of Rattus norvegicus with 18 samples.

Results

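Kidneys of rats given normal saline were compared after 6 weeks and after 1 day, to describe how the unexposed kidney differed with time. The comparison holds the 3 saline arrays whose titles carry N2 (6 weeks) and the 3 whose titles carry N1 (1 day), 6 of the 18 arrays of the series. Members were chosen from the labels alone.

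The study followed kidney RNA of SD rats (the series title; Sprague-Dawley) exposed to cadmium, with normal saline as the control, at 1 day, 6 weeks and 12 weeks. Whole kidney was frozen in liquid nitrogen, total RNA was extracted with Trizol, and biotin-labelled cRNA was hybridized to Affymetrix arrays. Each of the 6 groups has 3 arrays, labelled as biological replicates, and p-values measure the spread between them. The labels give no genotype, age, sex, dose, route or hour of harvest, and the saline rats of 1 day and 6 weeks share their treatment and tissue. Since every time is its own group of rats, age, length of treatment and day of harvest cannot be told apart.

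Cells that divide switch on a shared set of genes, first those that make nucleotides and copy DNA, then those that build the spindle, pull chromosomes apart and cut the cell into daughters. In the growing rodent kidney, tubule cells divide and interstitial cells lay down fibrillar collagen and its partners, and both activities are low in the adult organ. Interferon-induced genes form another shared programme, switched on by interferon signalling and kept in check by inhibitors such as Usp18.

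Between 1 day and 6 weeks the saline kidney lost signal of division genes, matrix genes and a few interferon-induced genes. Of 22084 genes tested, 102 fell (0.462%) and 9 rose (0.0408%) at an adjusted p under 0.05 in limma, together 0.503% of all genes. Without adjustment 2610 genes had a p under 0.05. All values are log2 signals or differences of log2 signals, 6 weeks minus 1 day, and these are not calibrated folds because the summarization behind them is not stated. The falls ran from -3.14 to -0.40 with a median of -1.06, and 56 were over 1 in size, while the median over all genes was 0.00. Sorted by known role after their values were seen, 43 of the 102 serve mitosis and chromosome segregation, 16 serve DNA replication, 16 belong to the matrix, 5 are interferon-induced, 10 are pseudogenes or look-alike loci and 12 serve other roles. With 3 arrays against 3, an exact permutation test of a single gene cannot go below p = 0.1, so every call rests on the spread shared across genes and groups.

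**Figure D1:**
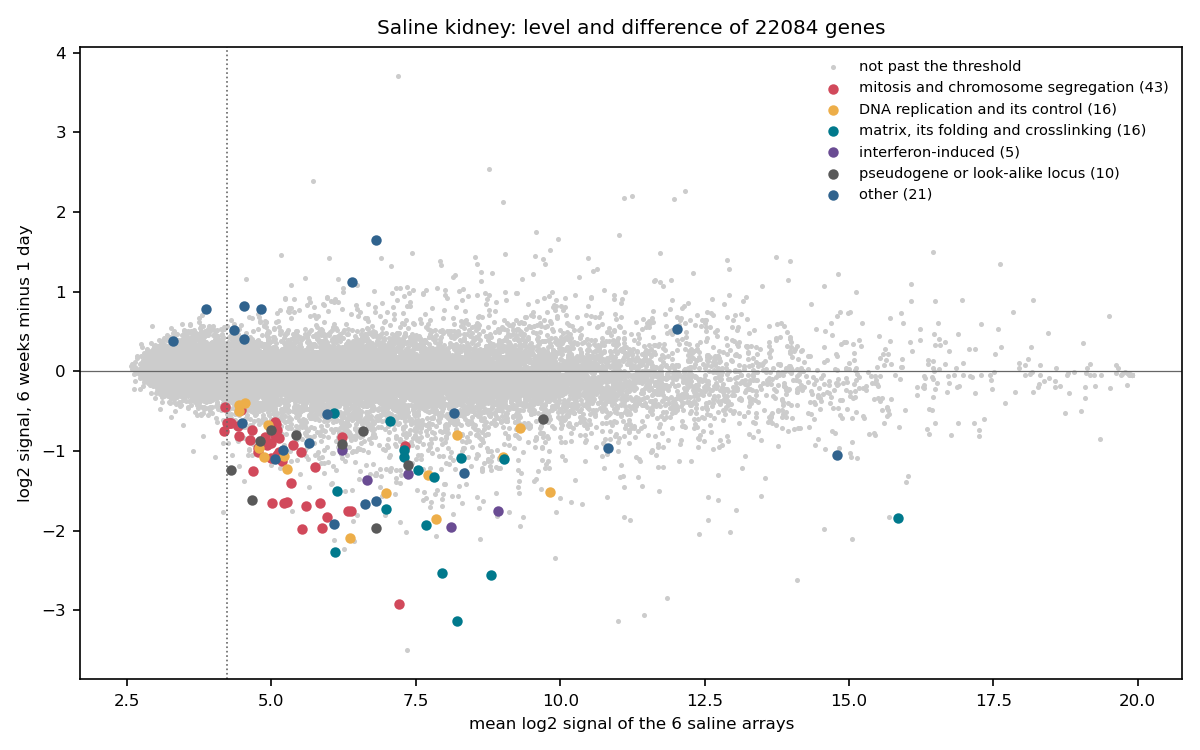
Difference in log2 signal between 6 weeks and 1 day (vertical axis) against the mean log2 signal of the 6 saline arrays (horizontal axis), each point being 1 of 22084 genes, with the 111 that passed coloured by role and the dotted line at the background level of 4.22. The coloured points lie mostly below 0, with 102 falls and 9 rises.

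The number of calls depended on which arrays entered the fit. A fit of only the 6 arrays compared called 8 genes, all among the 111, and a fit of only the 9 saline arrays called 0, with 2455 genes at an unadjusted p under 0.05. Leaving out saline 1 day replicate 3 left 24 calls. Leaving out saline 6 weeks replicate 1, 2 or 3 left 22, 51 or 19.

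Array medians in the saline groups of 1 day and 6 weeks lay between 4.04 and 4.26. Arrays within these groups correlated at 0.988 to 0.995 across genes and arrays of different groups at 0.983 to 0.994. A signal of 4.22 was taken as background, the 95th percentile of nasal (odorant and vomeronasal) receptor genes, which kidney hardly uses. Kidney markers stood far above it: Umod, the tubule protein uromodulin, had means of 19.82 and 19.79, close to the ceiling of 19.93, and the phosphate carrier Slc34a1 had 19.63 and 19.67. Of 10 kidney markers 5 were higher and 5 lower at 6 weeks, with a median difference of 0.00 and 0 calls. Single markers spread widely around that median, with differences from -1.384 (Slc12a1) to 1.498 (Slc12a3). Umod and Slc34a1 differed by -0.02 and 0.04, but so near the ceiling a difference may not show. Umod lies next to the median, which shares that limit. Bmal1 and Dbp are daily clock genes that peak at opposite phases. Bmal1 minus Dbp was -6.60, -6.21 and -6.49 at 1 day and -6.08, -5.87 and -6.73 at 6 weeks, groups that overlapped. Of 19 measured clock list genes 5 were higher and 14 lower at 6 weeks, with 0 calls. Their differences ran from -0.70 (Per1) to 0.93 (Hlf), with 0.61 for Per2. Whether the clock phase was the same at both times was not tested. Saline 1 day replicate 3 stood above its group in collagen, matrix and smooth muscle genes. Saline 6 weeks replicate 3 had the lowest exon minus intron control signal of the 6 arrays (3.96, the others 4.41 to 4.83) and the lowest mean of proximal tubule transport genes (12.73, the others 12.94 to 13.94).

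Promoters of 3 division genes and 1 interferon-induced gene that fell are shown because they hold letters of motifs known from such genes. They were selected after the motif matches were seen, and not every gene of either kind has such a match: Kif20a, a mitotic kinesin that fell, had 0 CHR matches (defined after the sequences) and Mx1 had 0 ISRE matches. Each runs 5′ to 3′ from 250 bases before to 50 after the start site (RefSeq, GRCr8), with the start as base 1, and capitals mark motif matches. Ccnb2 lies at chr8:79981609-79981908 on the minus strand, Prc1 at chr1:143659231-143659530 on the plus strand, Cenpf at chr13:103760837-103761136 on the minus strand and Irf7 at chr1:205799974-205800273 on the minus strand.
Ccnb2: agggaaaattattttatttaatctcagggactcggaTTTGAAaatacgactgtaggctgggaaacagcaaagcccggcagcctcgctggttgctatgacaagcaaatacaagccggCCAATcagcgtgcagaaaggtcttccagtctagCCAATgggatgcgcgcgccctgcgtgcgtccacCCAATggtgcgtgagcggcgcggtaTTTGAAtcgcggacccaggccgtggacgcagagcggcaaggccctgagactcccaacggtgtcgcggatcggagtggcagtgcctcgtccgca
Prc1: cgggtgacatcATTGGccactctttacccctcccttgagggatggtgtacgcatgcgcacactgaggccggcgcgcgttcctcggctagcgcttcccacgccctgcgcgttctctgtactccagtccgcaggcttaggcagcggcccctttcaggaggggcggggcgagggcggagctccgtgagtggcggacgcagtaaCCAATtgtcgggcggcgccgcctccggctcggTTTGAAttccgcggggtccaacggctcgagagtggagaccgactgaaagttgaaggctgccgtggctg
Cenpf: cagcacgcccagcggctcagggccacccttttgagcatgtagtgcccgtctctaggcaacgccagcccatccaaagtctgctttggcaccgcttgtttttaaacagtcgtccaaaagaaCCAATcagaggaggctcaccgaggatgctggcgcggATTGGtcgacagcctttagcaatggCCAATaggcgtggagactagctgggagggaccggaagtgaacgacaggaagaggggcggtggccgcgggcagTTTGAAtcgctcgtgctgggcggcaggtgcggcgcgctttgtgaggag
Irf7: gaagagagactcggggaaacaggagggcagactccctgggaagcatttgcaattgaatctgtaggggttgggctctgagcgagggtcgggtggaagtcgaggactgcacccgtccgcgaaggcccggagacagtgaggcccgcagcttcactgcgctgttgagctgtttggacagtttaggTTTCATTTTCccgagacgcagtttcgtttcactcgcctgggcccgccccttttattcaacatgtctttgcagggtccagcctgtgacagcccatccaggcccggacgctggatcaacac
In the first 3, capitals mark the cell cycle homology region (CHR, searched as TTTGAA or TTCGAA) and the CCAAT box (CCAAT, or ATTGG on the other strand). Ccnb2 held CHR letters from base -214 and from base -43, with CCAAT boxes from -134, -101 and -68. Prc1 held CHR letters from -18, and Cenpf held them from base 3, just past its start. In Irf7 the capitals mark an interferon-stimulated response element (ISRE, searched as TTTC, any 2 bases, TTTC) from -69.

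Of 33 cell cycle list genes 25 had a promoter in the RefSeq table. CHR letters on either strand were found in 14 of them (56.0%), against 17.6% of the 17119 promoters of genes tested. CCAAT was found in 19 (76.0%), against 37.8%. The E2F letters TTTCCCGC or TTTGGCGC were found in 5 (20.0%), against 1.97%. Among all 102 genes that fell, 75 had a promoter and 33 of these (44.0%) held CHR letters. ISRE letters were found in 14 of 20 promoters of the interferon list (70.0%), against 3.49% of promoters of genes tested, and in 0 of 24 of the collagen and matrix list. These are matches of letters, not sites shown to be used.

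The cell cycle list was the most affected of the 24 pathway lists by count of calls. Of its 33 measured genes 21 fell, where 0.462% of all genes did, and 0 rose. On average 32 were lower, where 50.0% of all genes were, and 32 had 1-day and 6-week arrays that did not overlap with 6 weeks lower, where 10.1% of all genes did. The calls numbered 6 in a fit of only the 6 arrays, 0 in a fit of only the 9 saline arrays and 7 to 18 with 1 array left out: 8 without saline 1 day replicate 3, and 9, 11 or 7 without saline 6 weeks replicate 1, 2 or 3. Its median difference was -1.08. The list mean was 6.22, 6.21 and 6.49 in the arrays of 1 day and 5.17, 5.26 and 5.13 in those of 6 weeks. In whole tissue, fewer cells of a type and less RNA per cell cannot be told apart.

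Mki67, the Ki-67 protein that coats mitotic chromosomes, read 8.41, 8.65 and 8.93 at 1 day and 5.32, 5.98 and 5.93 at 6 weeks. All 3 arrays of 6 weeks lay far below all 3 of 1 day. The difference was -2.92 (SE 0.54, limma adjusted p = 0.0269), and it passed in 0 of 6 fits that left out 1 of the 6 arrays, with differences of -3.05 to -2.71. Ccnb2, cyclin B2, a partner of Cdk1 at entry into mitosis, read 6.25, 6.55 and 6.76 at 1 day and 4.76, 4.56 and 4.32 at 6 weeks. Again the groups were apart, the 6-week arrays being near background. The difference was -1.98 (SE 0.22, limma adjusted p = 0.00236) and passed in all 6 such fits. Top2a, the topoisomerase that untangles chromosomes, read 6.52, 6.81 and 7.21 at 1 day and 4.81, 4.93 and 4.92 at 6 weeks. Its groups did not overlap. It fell by 1.96 (SE 0.39, limma adjusted p = 0.0377) and passed in 0 of the 6 fits without 1 array.

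**Figure D2:**
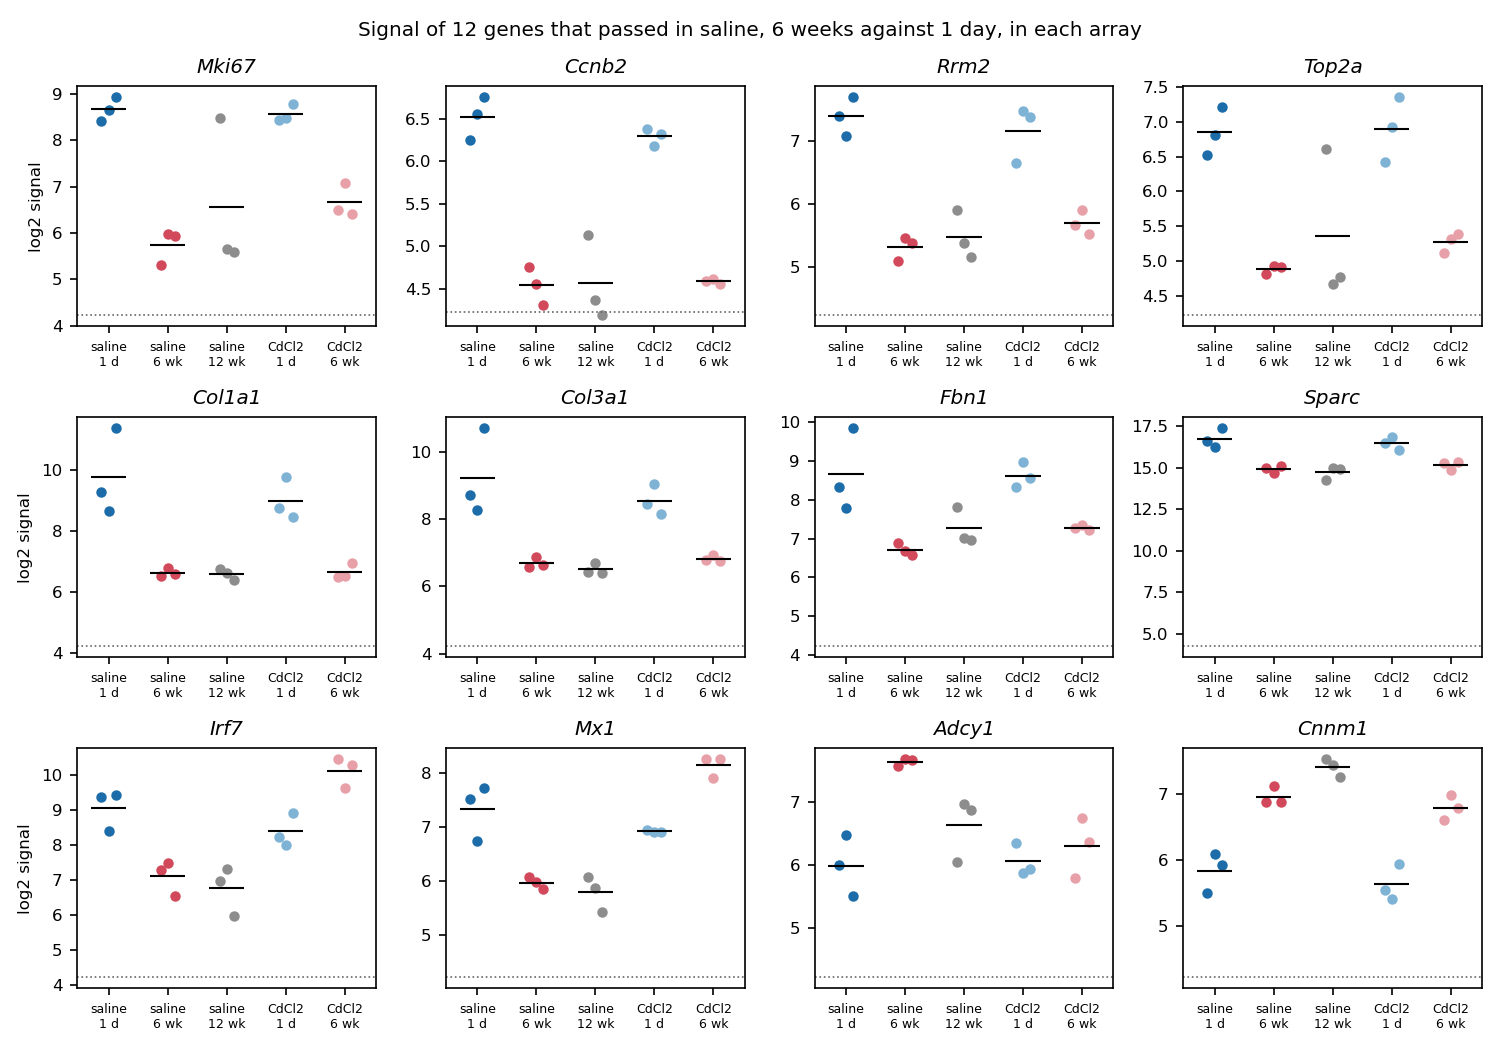
Log2 signal (vertical axis) of 12 genes that passed, in each array of 5 groups (horizontal axis), with points for arrays, bars for group means and a dotted line at the background level of 4.22. In each panel the 3 saline arrays of 6 weeks lie apart from the 3 of 1 day, and saline 1 day replicate 3 is the highest array in the collagen panels.

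Among the smallest p-values were further genes of the same machinery. Ccna2, cyclin A2, read 7.11, 7.26 and 7.40 at 1 day and 5.58, 5.46 and 5.45 at 6 weeks, a difference of -1.76 (SE 0.22, limma adjusted p = 0.00376). Prc1, which bundles microtubules between the separating chromosomes, read 5.88, 6.05 and 6.32 against 4.43, 4.65 and 4.26, a difference of -1.64 (SE 0.19, limma adjusted p = 0.00236). Ckap2, a microtubule-associated protein, read 5.74, 6.04 and 6.34 against 4.38, 4.49 and 4.27, a difference of -1.66 (SE 0.17, limma adjusted p = 0.00236). In all 3 genes no array of 6 weeks reached the lowest array of 1 day, and all 3 passed in each of the 6 fits that left out 1 array.

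By function, the 43 mitotic genes that fell spanned the whole of division, with fitted differences from -2.92 to -0.45. Genes of the kinetochore and centromere, where chromosomes attach to the spindle, were Cenpf (a fall of at least 1.08), Casc5 (-1.13), Ndc80 (-0.96), Cenpe (-0.93), Cenpw (-0.93), Ska3 (-0.83), Kntc1 (at least 0.40) and Nuf2 (-0.49). Kinesin motors ran from Kif20a (-1.69) and Kif23 (-1.05) to Kif18b (-0.63) and Kif4a (a fall of at least 0.39). Kinases of mitosis and its checkpoint were Plk1 (-1.65), Bub1 (-1.09), Plk4 (-0.80), Cdk1 (-0.74), Ttk (a fall of at least 0.34) and Aurkb (at least 0.54). Ect2 (-1.75) and Anln (-1.01) act in cleavage of the cell. Of the 102 falls 10 had all 6-week arrays below background (Aurkb, Cdca3, Cenpf, Cep55, Ckap2-ps3, Kif4a, Kntc1, Ncapg, Stil and Ttk). For these a value after "at least" is the bound from the 1-day mean down to the background level, not the fitted difference. In the cell cycle list 21 of 33 genes fell, and the 1 gene on the higher side was Kif11, a spindle kinesin. It read 8.55, 7.15 and 7.46 at 1 day and 7.79, 8.34 and 7.45 at 6 weeks, groups that overlapped (0.14, limma adjusted p = 0.94).

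Genes that supply and copy DNA fell as well. Rrm2, the regulated subunit of ribonucleotide reductase, which makes deoxynucleotides, read 7.40, 7.09 and 7.70 at 1 day and 5.09, 5.45 and 5.37 at 6 weeks. The groups were separated by more than the range within either. The difference was -2.09 (SE 0.24, limma adjusted p = 0.00236), and the call held in 16 of 17 alternative settings. Its partner subunit Rrm1 differed by -1.52, thymidylate synthase Tyms by -0.71, the primase subunit Prim1 by -1.86, the sliding clamp Pcna by -1.08 and the helicase subunits Mcm4, Mcm5 and Mcm6 by -1.53, -1.08 and -1.23. The transcription factor E2f1, which drives many of these genes, was dim and differed by -0.42 (4.69, 4.60 and 4.67 against 4.32, 4.14 and 4.24). Rrm2l1, a look-alike of Rrm2, read 7.95, 7.62 and 7.82 against 5.38, 6.14 and 5.98 (-1.96, SE 0.32, limma adjusted p = 0.0154), and its probe set may share signal with Rrm2. The same holds for Anlnl1, Cdca3l1, Nek2l1 and the pseudogenes Ckap2-ps3, Cyp51a1-ps1, Agfg1-ps1 and Lin9-ps1.

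Matrix genes formed the next group. In the collagen and extracellular matrix list, 6 of 34 measured genes fell (0.462% of all genes did), 0 rose, 32 were lower at 6 weeks (50.0% of all genes) and 21 had groups that did not overlap with 6 weeks lower (10.1% of all genes), with a median of -0.90. The list mean was 8.52, 8.22 and 9.48 at 1 day and 7.73, 7.66 and 7.55 at 6 weeks. Leaving out 1 array gave 0 to 9 calls in this list, with 3 left without saline 1 day replicate 3 and 0 without saline 6 weeks replicate 1 or replicate 3. Leaving out saline 6 weeks replicate 2 left 2. The list median ran from -1.01 to -0.62 over these fits. Fits of only the 6 arrays or of only the 9 saline arrays called 0 of its genes.

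Col1a1, a chain of type I collagen, read 9.29, 8.67 and 11.38 at 1 day and 6.52, 6.80 and 6.59 at 6 weeks. The third array of 1 day was highest, and the other 2 were also above every array of 6 weeks. The difference was -3.14 (SE 0.49, limma adjusted p = 0.0139), and -2.34 without the high array. Col1a2, its partner chain, read 9.76, 8.98 and 11.47 against 7.59, 7.64 and 7.33 (-2.56, SE 0.43, limma adjusted p = 0.0176). Col3a1, type III collagen, read 8.70, 8.27 and 10.70 against 6.58, 6.86 and 6.64 (-2.53, SE 0.43, limma adjusted p = 0.0176). These chains showed the same order of arrays at 1 day. Fbn1, fibrillin of the microfibrils, read 8.32, 7.78 and 9.85 against 6.88, 6.69 and 6.58 (-1.93, SE 0.39, limma adjusted p = 0.0407). Smoc2, a calcium-binding matrix protein, read 6.56, 6.71 and 8.44 against 4.94, 4.79 and 5.17 (-2.27, SE 0.41, limma adjusted p = 0.024). Both were highest in replicate 3 of 1 day, with no overlap between the times. With 1 array left out, Fbn1 passed in 1 of 6 fits and Smoc2 in 2 of 6.

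The basement membrane gave smaller differences with less spread. Col4a2, a type IV collagen chain, read 7.47, 7.79 and 8.09 at 1 day and 6.81, 6.87 and 6.70 at 6 weeks (-0.99, SE 0.16, limma adjusted p = 0.0148). Col4a5 fell by 0.53 and the laminin chain Lamc1 by 1.10. Col4a3 and Col4a4, chains of the mature glomerular basement membrane, differed by 0.01 and 0.35 and overlapped between the times. Genes that process collagen also fell: the collagen chaperone Serpinh1 (-1.08), the procollagen proteinase Bmp1 (-0.62), the crosslinking enzymes Loxl2 (-1.73) and Pxdn (-1.23) and the collagen uptake receptor Mrc2 (-1.08). Sparc, a collagen-binding glycoprotein and the brightest of the group, read 16.63, 16.26 and 17.41 against 15.01, 14.68 and 15.09 (-1.84, SE 0.34, limma adjusted p = 0.028). It passed in 1 of 6 fits without 1 array. Fn1, fibronectin, had a larger difference that did not pass: 11.75, 12.27 and 14.89 against 10.11, 9.81 and 9.83 (-3.05, SE 0.66, limma adjusted p = 0.059).

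Smooth muscle and pericyte markers were read beside the matrix genes. Of 10 measured, 9 were lower at 6 weeks (50.0% of all genes), 4 with no overlap (10.1% of all genes) and 0 passing, with a median of -0.69. Their mean ran from 7.94 to 9.24 at 1 day and from 7.45 to 7.83 at 6 weeks, highest in replicate 3 of 1 day, and 1 of the 10 was at background at both times. Pdgfrb, a receptor of pericytes, had 10.61, 9.83 and 11.23 against 9.78, 9.47 and 9.22 (-1.07, limma adjusted p = 0.248). Urothelial markers also stood apart in saline 1 day replicate 3, with a mean of 4.93 there, 3.83 and 3.82 in the other arrays of 1 day and 3.785 to 3.997 at 6 weeks. The part of either marker list in the matrix result was not tested.

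**Figure D3:**
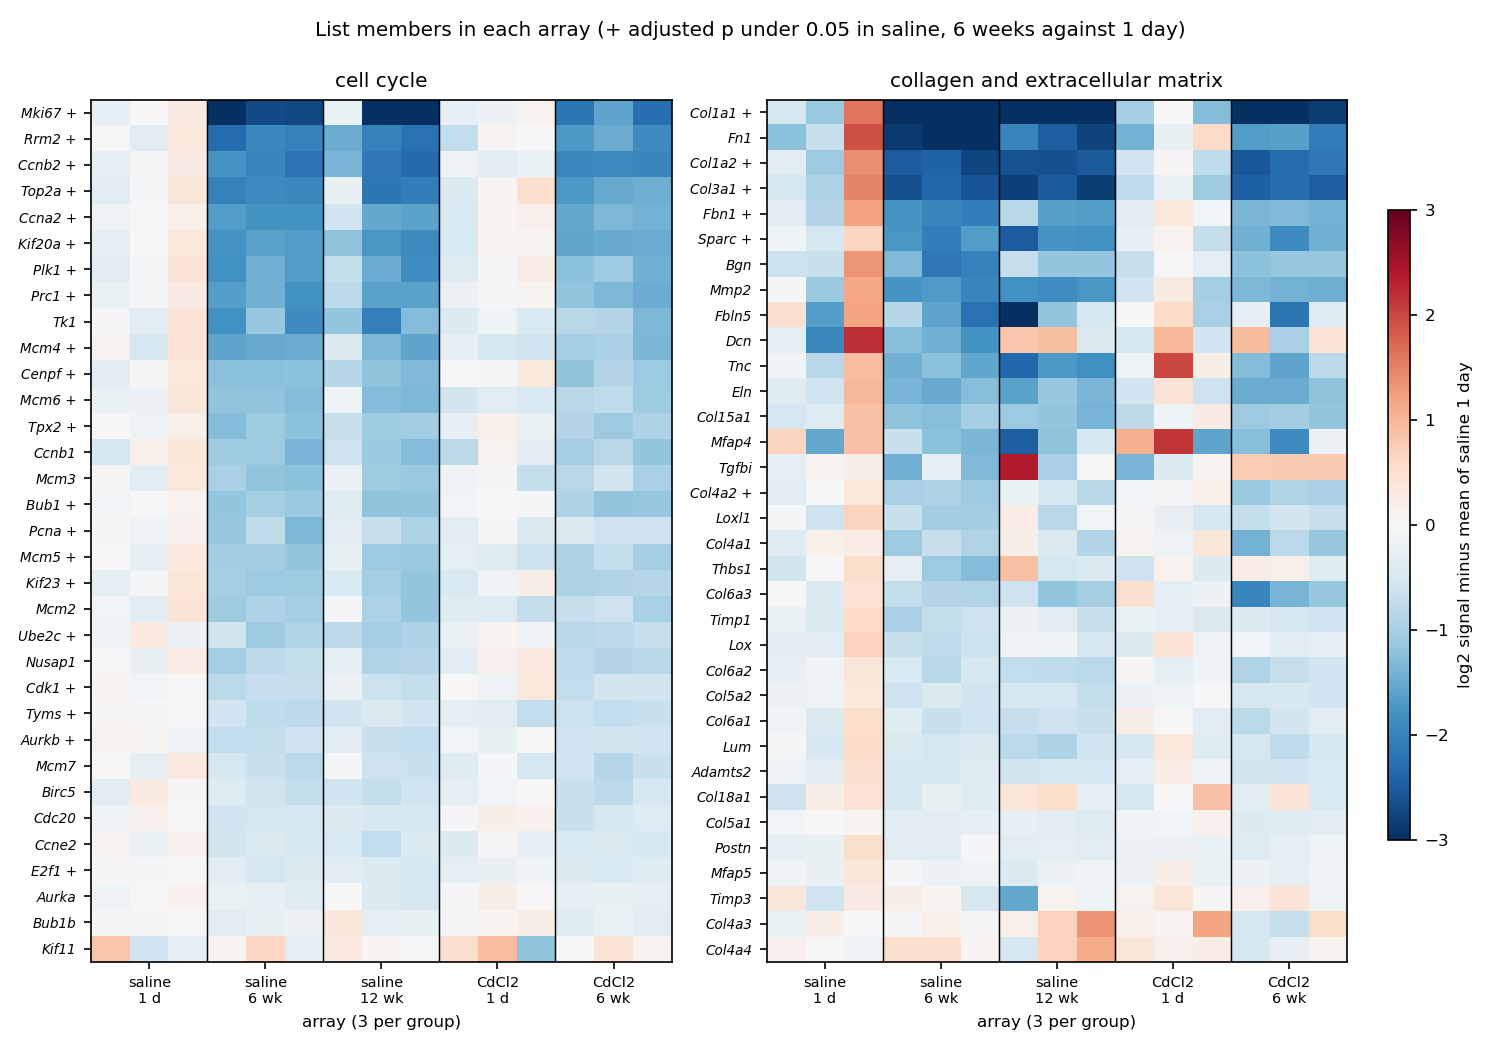
Log2 signal minus the mean of saline 1 day (colour, blue lower and red higher) for the 33 cell cycle genes and the 34 collagen and matrix genes (rows) in each array (columns, 3 per group), with + for genes that passed. The saline columns of 6 weeks are blue for 32 of 33 and for 32 of 34 genes on average, and the third column of saline 1 day is red in many matrix rows.

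Interferon-induced genes that fell were few. In the interferon list 3 of 28 measured genes fell (0.462% of all genes did), 0 rose, 27 were lower (50.0% of all genes) and 18 did not overlap with 6 weeks lower (10.1% of all genes), with a median of -0.65. The list mean was 7.13, 6.60 and 7.22 at 1 day and 6.11, 6.23 and 6.05 at 6 weeks. Leaving out 1 array gave 0 to 5 calls: 0 without saline 1 day replicate 3 or saline 6 weeks replicate 1 or replicate 3, 1 without saline 6 weeks replicate 2, 5 without saline 1 day replicate 2, and 2 without saline 1 day replicate 1. Fits of only the 6 arrays or of only the 9 saline arrays called 0.

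Irf7, the transcription factor that amplifies interferon production, read 9.40, 8.41 and 9.44 at 1 day and 7.30, 7.50 and 6.56 at 6 weeks. The lowest array of 1 day was above the highest of 6 weeks. The difference of -1.96 (SE 0.41, limma adjusted p = 0.0495) was just past the threshold and passed in 4 of 17 alternative settings. Mx1, an antiviral GTPase, read 7.53, 6.75 and 7.74 against 6.07, 5.99 and 5.85 (-1.37, SE 0.22, limma adjusted p = 0.0148). Usp18, which removes ISG15 and dampens interferon signalling, read 6.65, 6.45 and 7.08 against 5.62, 5.92 and 5.65 (-0.99, SE 0.16, limma adjusted p = 0.0148). For both genes the times did not overlap, and replicate 2 was the lowest array of 1 day. Outside the list Lgals3bp (-1.75) and Lgals9 (-1.29), galectin-related genes that interferon induces, fell too. Bst2, an antiviral membrane protein, was the member on the other side (0.05).

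Macrophage markers, 15 measured, had 12 lower at 6 weeks (50.0% of all genes), 2 with no overlap (10.1% of all genes, so about the share over all genes), 0 passing and a median of -0.55. Their mean ran from 6.03 to 6.77 at 1 day and from 5.82 to 6.12 at 6 weeks, so that the groups overlapped, and 2 were at background at both times. C1qb, a complement gene of macrophages, had 8.20, 6.19 and 7.66 against 6.33, 6.45 and 5.77 (-1.17, limma adjusted p = 0.402). Of 14 lymphocyte markers 10 were lower with a median of -0.13 and 0 passed. Neutrophil markers were at background at both times in 9 of 10. Their part in the interferon result was not tested.

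Red blood cell genes lay lower at 6 weeks in 9 of 9 (50.0% of all genes), with 6 non-overlapping (10.1% of all genes), a median of -0.61 and 1 fall (0.462% of all genes). Alas2, the first enzyme of heme synthesis in red cell precursors, read 7.58, 7.90 and 7.39 at 1 day and 5.76, 6.62 and 5.60 at 6 weeks (-1.63, SE 0.28, limma adjusted p = 0.0182). Hbb, a beta globin, had 6.43, 6.35 and 6.17 against 4.72, 5.90 and 5.30 (-1.01, limma adjusted p = 0.0734). Both showed replicate 2 as the highest array of 6 weeks, still below every array of 1 day. The list mean ran from 9.74 to 9.94 at 1 day and from 8.73 to 9.33 at 6 weeks, and 3 of the 9 genes were at background at both times.

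Cyp51, a lanosterol demethylase of cholesterol synthesis, was the 1 of 24 genes of that list that fell: 8.75, 8.94 and 9.21 at 1 day against 7.92, 7.81 and 7.33 at 6 weeks (-1.28, SE 0.17, limma adjusted p = 0.00521, passing in 15 of 17 settings). In this list 18 genes were lower (50.0% of all genes) and 12 did not overlap with 6 weeks lower (10.1% of all genes), with a median of -0.41. The next by p were Idi1 (-0.99, limma adjusted p = 0.0658), Msmo1 (-1.10, limma adjusted p = 0.104) and Fdft1 (-0.81, limma adjusted p = 0.111), enzymes of the same pathway. Mest, an imprinted gene of growing tissues, was the 1 of 23 growth and imprinted genes that fell (5.16, 5.61 and 6.07 against 4.50, 4.65 and 4.39, -1.10, SE 0.20, limma adjusted p = 0.0262). That list had 12 genes higher, 11 lower and a median of 0.03. In it 5 genes did not overlap with 6 weeks lower (10.1% of all genes) and 1 with 6 weeks higher (7.56% of all genes). The list mean was 7.55, 7.60 and 7.77 at 1 day and slightly lower, 7.52, 7.49 and 7.35, at 6 weeks. Igf1, a growth factor, spread from 7.60 to 10.60 at 1 day and from 6.78 to 7.50 at 6 weeks (-1.79, limma adjusted p = 0.243). Alox15, a lipoxygenase, read 6.56, 7.64 and 6.92 against 5.13, 5.35 and 4.89 with no overlap (-1.91, SE 0.38, limma adjusted p = 0.0429). Mest and Alox15 each passed in 1 of 6 fits without 1 array.

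The 9 genes that rose belonged to no list. Adcy1, an adenylyl cyclase that makes cyclic AMP, read 5.99, 6.47 and 5.51 at 1 day and 7.57, 7.68 and 7.65 at 6 weeks. The 6-week arrays lay close together and all above those of 1 day. The difference was 1.64 (SE 0.28, limma adjusted p = 0.0182), and it passed in 2 of 6 fits without 1 array. Cnnm1, of the cyclin M family of membrane proteins, read 5.50, 6.08 and 5.91 against 6.87, 7.12 and 6.88 (1.12, SE 0.20, limma adjusted p = 0.025). Sptan1, spectrin alpha of the membrane skeleton, read 11.82, 11.71 and 11.72 against 12.28, 12.30 and 12.28 (0.54, SE 0.10, limma adjusted p = 0.028). Both were apart between the times by more than the range within either, and each passed in 1 of 6 fits without 1 array.

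The other rises were dim. Trpc5, a cation channel, read 4.20, 4.19 and 3.95 at 1 day, all under background, and 4.83, 4.81 and 5.15 at 6 weeks, so it rose by at least 0.71. Lrrn1, a leucine-rich repeat membrane protein, read 4.49, 4.42 and 4.38 against 4.89, 5.46 and 5.29 (0.79, limma adjusted p = 0.028). The Mir191 probe set read 4.17, 4.10 and 4.01 against 4.63, 4.48 and 4.73, at least 0.39 higher, and what it reads of the microRNA precursor or its host transcript cannot be told apart. Shf, an SH2 adaptor, differed by 0.40. With 1 array left out, Trpc5 and Shf passed in 0 of 6 fits. The unnamed locus LOC102549184 was at least 0.036 higher, and Snai3, a Snail family gene, was at background at both times. All 9 rises had groups that did not overlap, where 7.56% of all genes did in that direction.

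Nephron genes had no call. Of 39 proximal tubule transport genes 19 were higher and 20 lower, with a median of -0.04. The fructose carrier Slc2a5 had 9.92, 9.92 and 10.07 against 8.65, 9.09 and 8.33 (-1.28, limma adjusted p = 0.47), and Slc22a6, an organic anion carrier, differed by 1.10 (limma adjusted p = 0.592). Of 34 genes of the loop, distal tubule and collecting duct 18 were higher and 16 lower. Its widest values were Slc26a4, the chloride and bicarbonate exchanger pendrin, with 10.72, 12.25 and 9.69 against 12.73, 12.59 and 13.83 (2.16, limma adjusted p = 0.26), and the tight junction gene Cldn19 (-2.10, limma adjusted p = 0.265). These pairs of groups did not overlap, but the spread at 1 day was wide. Cyp24a1, which degrades vitamin D, had 12.35, 10.76 and 9.97 against 12.15, 15.06 and 12.69 (2.27, limma adjusted p = 0.439), with overlap. Of 11 podocyte genes 7 were higher with a median of 0.08, and of 17 endothelial genes 12 were lower with a median of -0.14.

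The remaining pathway lists had 0 calls as well. Medians were -0.05 for antigen presentation, -0.22 for inflammatory signalling, -0.22 for complement and coagulation, 0.22 for proximal tubule enzymes, 0.02 for calcium, phosphate and vitamin D, -0.06 for renin-angiotensin and vasoactive genes, 0.12 for fatty acid oxidation, -0.05 for the respiratory chain, -0.14 for glutathione and xenobiotic genes, -0.04 for metal and iron handling, -0.04 for heat shock and chaperones, -0.09 for amino acid response and p53 targets, -0.08 for the circadian clock, -0.18 for immediate early and glucocorticoid-induced genes and -0.29 for tubular injury and repair. In the last list 20 of 23 genes were lower (50.0% of all genes) and 5 did not overlap with 6 weeks lower (10.1% of all genes). Vim, an intermediate filament gene, had 11.35, 11.53 and 12.84 against 10.50, 10.71 and 11.21 (-1.10, limma adjusted p = 0.225), highest in replicate 3 of 1 day. Mt1, metallothionein, stood near the ceiling with 19.15, 19.38 and 18.95 against 19.83, 19.93 and 19.79 (0.69, limma adjusted p = 0.504). Skeletal muscle and adrenal markers were at background at both times in 8 of 9 and 6 of 7. The adipose list had a median of -0.36 and the urothelial list of -0.22, with 0 calls.

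**Figure D4:**
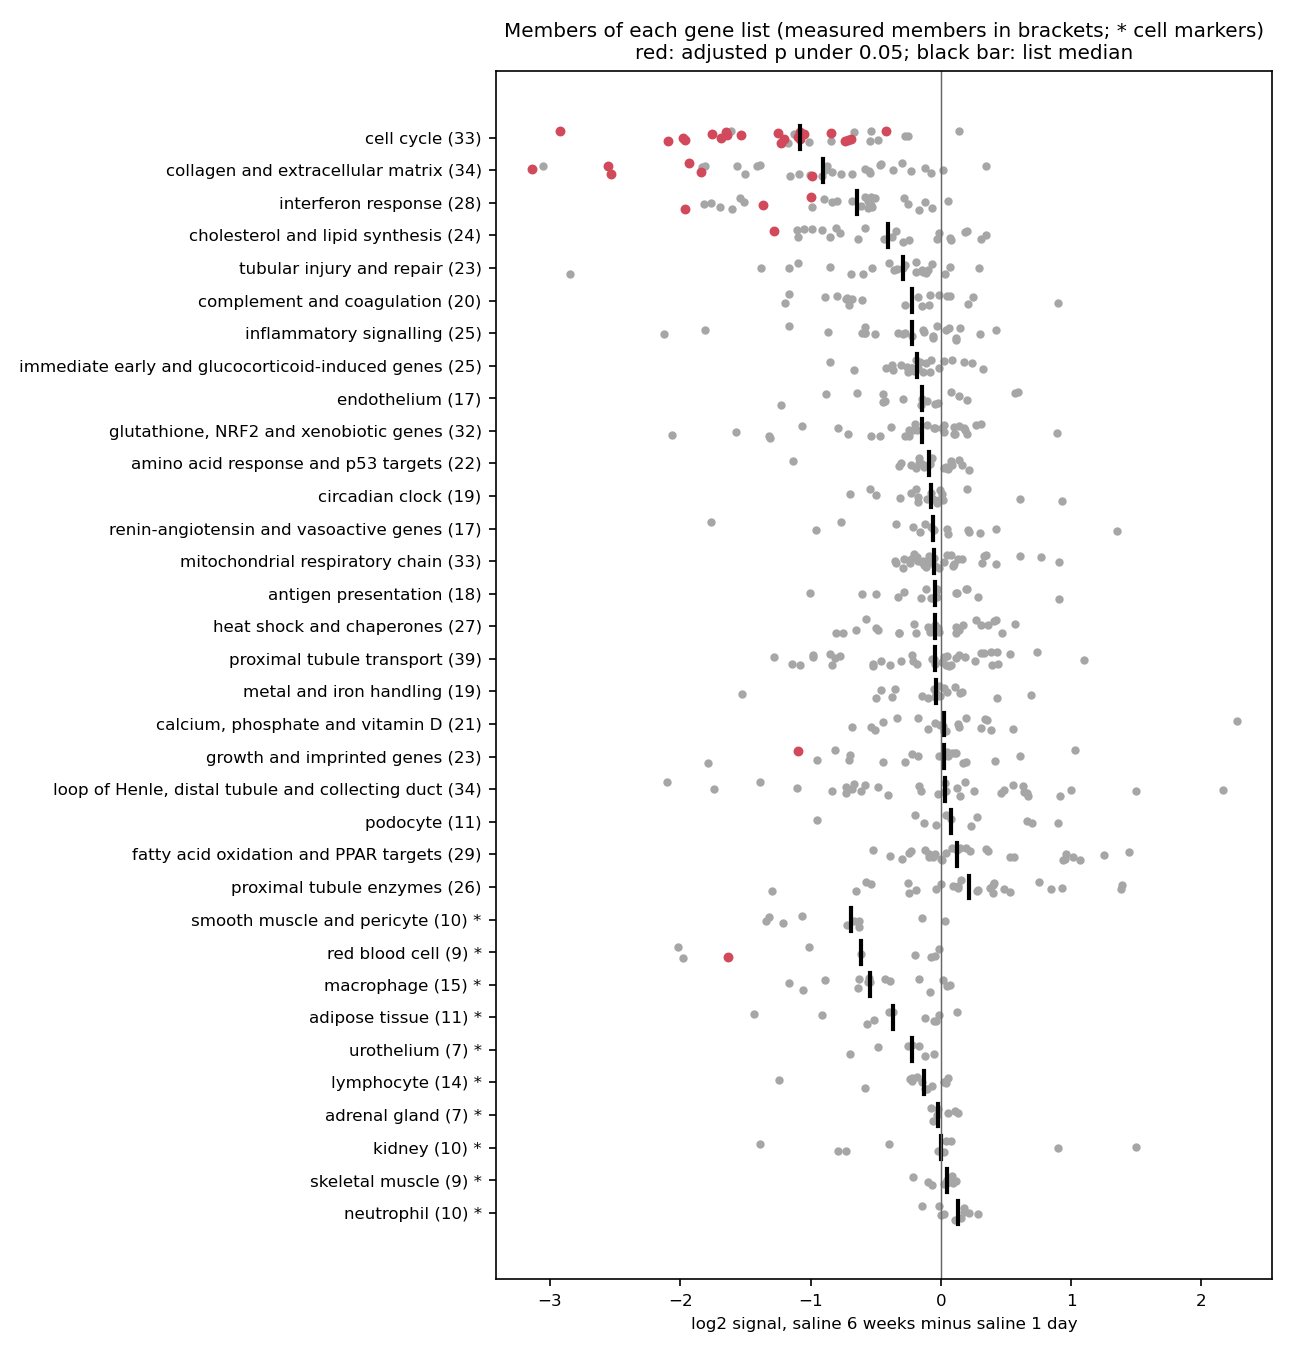
Difference in log2 signal, saline 6 weeks minus 1 day (horizontal axis), of every measured member of the 24 pathway lists and 10 cell marker lists (rows), with red points for genes that passed and black bars for list medians. The cell cycle list has the lowest median (-1.08) and 21 red points, followed by collagen and matrix (-0.90) and smooth muscle and pericyte markers (-0.69, with 0 red points).

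The cadmium chloride rats give the same interval in 6 other arrays, which share no array with the saline comparison, although the fit shares its estimate of spread. In them 19 genes fell (0.086%) and 4 rose (0.0181%) between 1 day and 6 weeks in limma. All 19 were among the 102 that fell in saline, and 1 of the 4, Cnnm1, was among the 9 that rose. Of the 102, 96 were lower at 6 weeks in the cadmium arrays, where 48.4% of all genes were, and 81 did not overlap, where 5.55% of all genes did not in that direction. Their median was -0.64 in cadmium and -1.06 in saline. Since they were chosen for passing in saline, the sizes in the 2 treatments are a description. Cadmium 1 day replicate 3 and cadmium 6 weeks replicate 3 stood apart in Bmal1 minus Dbp, at -1.81 and 1.15, and leaving out cadmium arrays in turn moved the cadmium count from 23 to between 0 and 20.

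By role, all 43 mitotic genes were lower in cadmium without overlap, 12 of them passing, with a median of -0.78 beside -0.94 in saline. Ccnb2 read 6.38, 6.18 and 6.33 at 1 day and 4.59, 4.62 and 4.56 at 6 weeks in cadmium (-1.71, limma adjusted p = 0.0146), close to its saline values. All 16 replication genes were lower, 11 without overlap and 1 (Rrm2) passing, with a median of -0.37 beside -1.07. No replication gene passed the test of the difference between treatments. Rrm1 read 10.03, 10.30 and 9.80 at 1 day and 10.13, 9.67 and 9.40 at 6 weeks in cadmium, with overlap (-0.31, limma adjusted p = 0.998). All 16 matrix genes were lower, 15 without overlap and 3 passing (Col4a2, Col4a5 and Serpinh1). Smoc2 was the matrix gene that overlapped, with 5.61, 6.39 and 6.88 against 6.33, 6.18 and 5.65. Smooth muscle and pericyte markers were lower in cadmium in 10 of 10 (48.4% of all genes). Their mean was 8.08, 8.92 and 7.70 at 1 day and 7.74, 7.77 and 7.91 at 6 weeks, with overlap. Urothelial markers were lower in 7 of 7, with means of 4.12, 4.64 and 4.425 against 3.74, 4.10 and 3.89. The part of either marker list in the cadmium matrix values was not tested.

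All 5 interferon-induced genes that fell in saline lay higher at 6 weeks in the cadmium arrays. Irf7 read 8.25, 8.02 and 8.93 at 1 day and 10.47, 9.64 and 10.29 at 6 weeks there (1.73, limma adjusted p = 0.174). Mx1 read 6.96, 6.92 and 6.90 against 8.26, 7.92 and 8.25 (1.22, limma adjusted p = 0.0582). Usp18 read 6.12, 6.14 and 6.43 against 7.37, 7.19 and 7.38 (1.09, limma adjusted p = 0.0208). In all 3 genes every cadmium array of 6 weeks was above every cadmium array of 1 day, opposite to saline. The share of all genes with that pattern in cadmium was not counted. The test of the difference between the changes was passed by 2 of 22084 genes (0.00906%), Mx1 (2.59, SE 0.31, limma adjusted p = 0.00869) and Usp18 (2.08, SE 0.23, limma adjusted p = 0.00475), with 1472 at an unadjusted p under 0.05. Irf7 differed by 3.69 (SE 0.58, limma adjusted p = 0.0872). Alas2 was the other fall that lay on the higher side in cadmium (0.14). Of the 9 rises 5 were higher in cadmium, where 51.6% of all genes were, and Adcy1 had 6.35, 5.88 and 5.94 against 5.80, 6.75 and 6.37 there, with overlap.

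**Figure D5:**
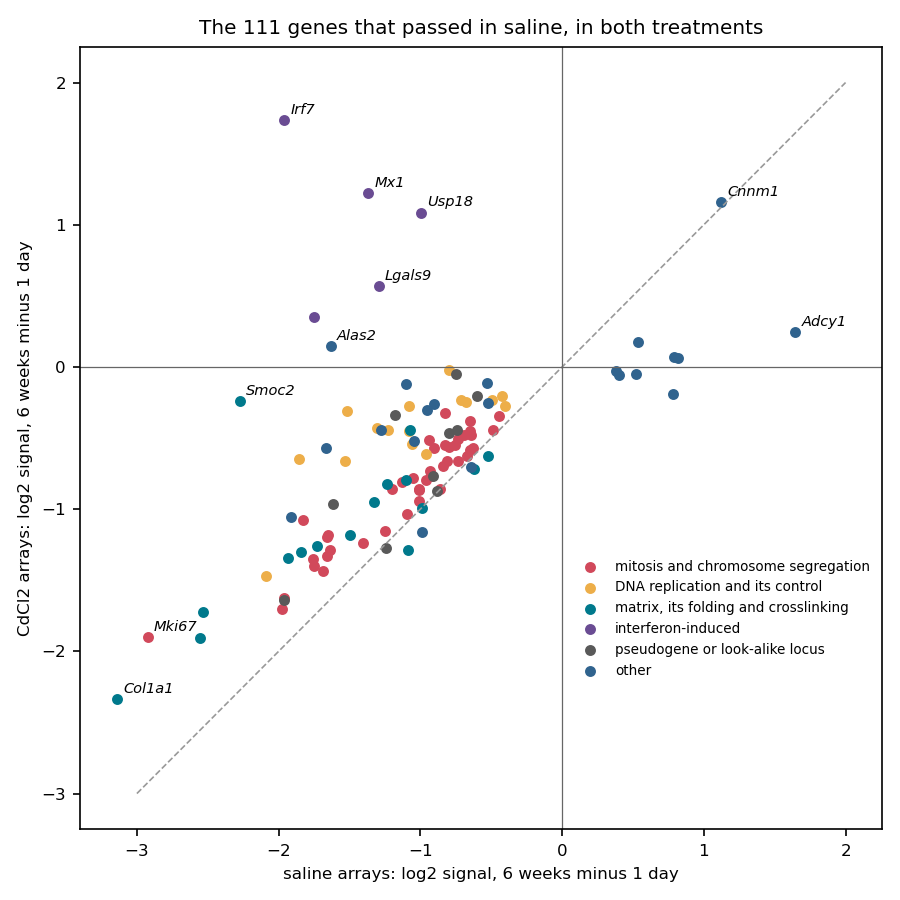
Difference in log2 signal between 6 weeks and 1 day in the cadmium chloride arrays (vertical axis) against the same in the saline arrays (horizontal axis) for the 111 genes that passed in saline, coloured by role, with a dashed line where both are equal. Of the 102 falls 96 lie below 0 on the vertical axis, and the 5 interferon-induced genes lie above it.

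The saline arrays of 12 weeks share the 6-week arrays with any further step, so their values are only set beside the others. Their daily clock stood apart, with Bmal1 minus Dbp at 1.80, -0.17 and 2.70. All 102 falls had a 12-week mean below that of 1 day, and 84 of these means lay between those of 6 weeks and 1 day. The 102 were chosen for high 1-day and low 6-week values in the same saline arrays. Both counts are therefore partly set by that choice, and the share over all genes was not counted. Mki67 read 8.47, 5.64 and 5.59 at 12 weeks, so its first array was as high as 1 day and the other 2 were at the level of 6 weeks. Ccnb2 read 5.13, 4.37 and 4.19, again highest in replicate 1. No gene passed in saline between 12 and 6 weeks in limma (0 of 22084), with 1854 at an unadjusted p under 0.05.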

How the data were processed

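Kidney RNA was measured on 18 Affymetrix arrays. The authors deposited log2 signals per probe set, per the values themselves (1.78 to 19.93, with 9 columns sharing a ceiling of 19.93). How they were summarized and normalized is not given in the sources used here. Of 70570 probe sets 1738 were controls, 23437 named 1 gene, 505 several and 44890 none, by the platform annotation. A gene was represented by its brightest probe set, which gave 22084 genes, of which 13985 exceeded background. Of 22237 Entrez identifiers 22068 were found in RefSeq. Arrays have no read depth, so their number and the signal over background limit precision.

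Group means of all 18 arrays were fitted in limma 3.58.1 (R 4.3.3, data.table version 1.17.8) with eBayes, on 12 residual degrees of freedom and 2.45 from the prior. Tests were two-sided with Benjamini-Hochberg adjustment over all genes within each contrast, at 0.05. "Passed", "rose" and "fell" refer to this threshold. Scripts were tested on simulated data. A bound is the brighter group's mean minus the background level.

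Named genes were the 12 largest passing falls and rises with separate groups and a proper symbol (12 and 7 qualified), up to 4 members of each list with the smallest p (2 of each marker list), and the 3 smallest p per direction in the cadmium and difference contrasts. Others were named after their values were seen. The comparison, the 24 pathway and 10 marker lists (595 of 641 genes measured) and the background level were chosen with earlier results of these data known. Replicate numbers were not used to pair arrays in the main fit. Deviations from group means correlated at -0.27 to 0.20 for equal numbers (1 of 3 over 0.1) and -0.45 to 0.46 for different ones. With 3 arrays per group these values constrain one another, so they cannot settle whether the numbers pair arrays. Alternatives varied the arrays fitted, array weights, centring, quantile normalization, background filter, probe sets, intensity trend and replicate block. Figures used matplotlib 3.10.9 with pandas 2.3.3 in Python 3.11.15.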

Additional observations from a re-analysis of the deposited data

Results flagged for a closer look

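The change from 1 day to 6 weeks differed between the 2 treatments for 2 genes, by limma's test of the difference itself. That test does not ask whether the signs are opposite, and the signs are read from the values. Mx1 fell by 1.37 in saline and was 1.22 higher in cadmium, without passing there. The difference was 2.59 (SE 0.31, limma adjusted p = 0.00869). Usp18 fell by 0.99 in saline and rose by 1.09 in cadmium, a difference of 2.08 (SE 0.23, limma adjusted p = 0.00475). In both genes 3 of 3 later arrays were under every early array in saline, and 3 of 3 over every early array in cadmium. In saline 10.1% of all genes had that pattern, and the share in cadmium was not counted. Mx1 and Usp18 passed in all 14 alternative fits of the difference between treatments.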

How the results depend on the processing

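Of the 102 falls and 9 rises in saline, fits restricted to the 6 arrays compared gave 8 and 0, fits of the 9 saline arrays 0 and 0 (limma, 2455 at an unadjusted p under 0.05), array weights 255 and 86, and all probe sets 52 and 5. Median centring gave 17 rises and quantile normalization 21. Leaving out each array gave 18 to 110 falls and 0 to 9 rises. The other 4 settings (12 arrays of both times, genes above background, the median of probe sets and an intensity trend) kept both counts within 1.5 times. With the replicate block, 55 genes fell and 2 rose, and 56 of these calls were shared with the 111; the cadmium count was 4 with the block. The 23 cadmium calls became 2 in a fit of only its 6 arrays, and 0 to 20 with 1 array left out. The 2 genes of the difference between treatments remained in every alternative, with 2 to 5 calls when 1 array was left out. For named genes, 199 of the alternative values lost the call, 15 gained it and 10 changed sign, in 5 genes that were not called: Umod was 0.035 with median centring and 0.0083 with quantile normalization, and with 1 array left out the values ran from -0.074 to 0.011 for Umod, -0.0081 to 0.10 for Slc34a1, -0.32 to 0.27 for Kl, -0.085 to 0.23 for Lrp2 and -0.77 to 0.040 for Upk1a. Within the cell cycle list 6 of the 21 calls were made with only the 6 arrays, 0 with the 9 saline arrays and 7 to 18 with 1 array left out. The causes were not tested. The 3 arrays per group, the unstated normalization and dim signals near the background level limit every value, and the fit of 12 arrays for the saline counts and the fits leaving out 1 array for the cadmium and difference counts were chosen after seeing the data.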

Other observations

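Some of the widest differences belonged to genes outside the lists that did not pass, named after their values were seen. Cyp2c11, a cytochrome P450 that is male-specific in adult rat liver, had means of 5.33 ± 0.98 (SD, n = 3) at 1 day and 9.04 ± 1.14 (n = 3) at 6 weeks in saline (3.71, limma adjusted p = 0.231). In the cadmium arrays its difference was 5.39, given only as a description. Cryga, a lens crystallin, had 9.09 ± 0.96 and 5.59 ± 0.35 (-3.50, limma adjusted p = 0.29), and the histone gene Hist2h3c2 had 12.56 ± 0.50 and 9.42 ± 0.71 (-3.14, limma adjusted p = 0.0615). Spp1, osteopontin, spread from 9.71 to 16.12 within the 3 saline arrays of 1 day and from 9.40 to 11.05 at 6 weeks. Ifit1, an interferon-induced gene, read 8.26 in saline 1 day replicate 1 and between 3.07 and 3.71 in the other 5 arrays.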
